A study of Mus musculus with 12 samples.

Results

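The lysosome was followed through 38 genes of the mouse striatum after ischemic stroke: 11 proteases, 10 other enzymes or luminal proteins, 8 membrane proteins, the transcription factor gene Tfeb and 8 subunits of the proton pump. The members were chosen by symbol, matched to the Ensembl IDs of the deposited count tables. All 38 were found among the 54532 IDs, and all 38 were among the 19822 genes that passed the filter on low counts. Of these members, 3 are known chiefly from phagocytes and osteoclasts (Atp6v0d2, Ctsk and Cd68), 2 from white blood cells (Ctss and Laptm5), and 33 are expressed in most cell types.

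Lysosomes are acidic compartments in which hydrolases break down material taken up from outside the cell or delivered by autophagy. The proton pump, or V-ATPase, acidifies them: its V1 part hydrolyses ATP in the cytosol and its V0 part carries protons across the membrane. In injured brain, microglia and infiltrating macrophages clear dead cells and myelin through this compartment, while neurons use the same pump to load synaptic vesicles with transmitter. TFEB switches on many lysosomal genes through a short promoter sequence called the CLEAR motif.

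Total RNA of C57BL/6J striatum was sequenced as polyA+ libraries at 7 and 14 days after the stroke. Each time had WT mice, mice deficient in Cgas (cGAS-KO) and mice deficient in Sting (STING-KO), the deficient lines having been made with CRISPR-Cas9. The 6 groups held 2 libraries each, 12 in all, and every group had the stroke, so no uninjured level was measured. Age and sex are not stated in the labels, nor is it stated that the libraries of a group came from separate mice, and p-values describe no more than the spread among libraries. cGAS senses DNA in the cytosol and STING relays its signal.

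Library totals ran from 15956242 to 22126213 counts. Levels are CPM, counts scaled to a common normalised library size, and 3 counts, taken as the floor, equal 0.133 to 0.195 CPM. Each change is on the log2 scale with its SE, both fitted by edgeR (quasi-likelihood), and a gene was called at a Benjamini-Hochberg adjusted p below 0.05 over all 19822 genes. With 2 libraries a group, both values are given in place of a mean.

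Several libraries stood apart from what their labels would give. At 7 days Cgas read 3.25 and 2.97 CPM in WT but 5.55 and 5.66 CPM in cGAS-KO, and Tmem173, the gene of STING, read 2.80 and 2.71 CPM in WT but 20.9 and 23.8 CPM in STING-KO. At 14 days Cgas read 12.6 and 7.68 CPM in WT against 4.09 and 6.15 CPM in cGAS-KO, and Tmem173 read 22.3 and 20.8 CPM in WT and 2.40 and 5.21 CPM in STING-KO. Between the 7-day knockouts both genes were lower in the line deficient in them. Cgas read 11.2 and 12.6 CPM in 7-day STING-KO, and Tmem173 read 28.7 and 30.3 CPM in 7-day cGAS-KO. At 14 days this held for Tmem173, at 18.4 and 18.1 CPM in cGAS-KO. It did not hold for Cgas, whose 14-day STING-KO values of 4.5 and 3.58 CPM overlapped those of cGAS-KO. The labels give no edited site, so the transcript need not fall in an edited line. Whether labels were exchanged between libraries was not tested. Genotype names below mean the libraries labelled so. The 7-day WT libraries were rich in transcripts of cortical neurons: 12 markers of cortical and hippocampal neurons summed to 2101 and 2455 CPM there, against 153 to 776 CPM in the other 10 libraries. The summed level of 12 markers of striatal projection neurons was low, at 211 to 520 CPM, in all 6 libraries of 7 days, 857 to 2888 CPM in 14-day WT and cGAS-KO, and 6447 and 6784 CPM in 14-day STING-KO. Fibroblast and choroid plexus markers were also far higher in the 7-day knockouts than at 14 days. Marker sums differed in the other groups as well. Oligodendrocyte markers summed to 22477 and 21785 CPM in 14-day WT and to 29199 and 32724 CPM in 14-day cGAS-KO. Fibroblast markers summed to 4931 and 3177 CPM in 7-day cGAS-KO and to 2131 and 1804 CPM in 7-day STING-KO. Region or tissue composition therefore cannot be told apart from genotype and time in any of the comparisons.

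The counts of the 38 members together equalled 0.516% of the normalised library size, not of the raw total, in both 7-day WT libraries. The share was 2.96% and 3.20% in 7-day cGAS-KO and 3.96% and 4.10% in 7-day STING-KO. At 14 days the share was 1.36% and 1.42% in WT, 1.19% and 1.20% in cGAS-KO, and 0.473% and 0.661% in STING-KO. Proteases supplied most of this movement. Their summed level was 1121 and 987 CPM in 7-day WT, 19540.0 and 21034 CPM in 7-day cGAS-KO, and 26827 and 28008 CPM in 7-day STING-KO. The 7 pump subunits other than Atp6v0d2 went the other way, from 2512 and 2676 CPM in 7-day WT to between 1439 and 1877 CPM in the 4 knockout libraries of that day.

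**Figure D1:**
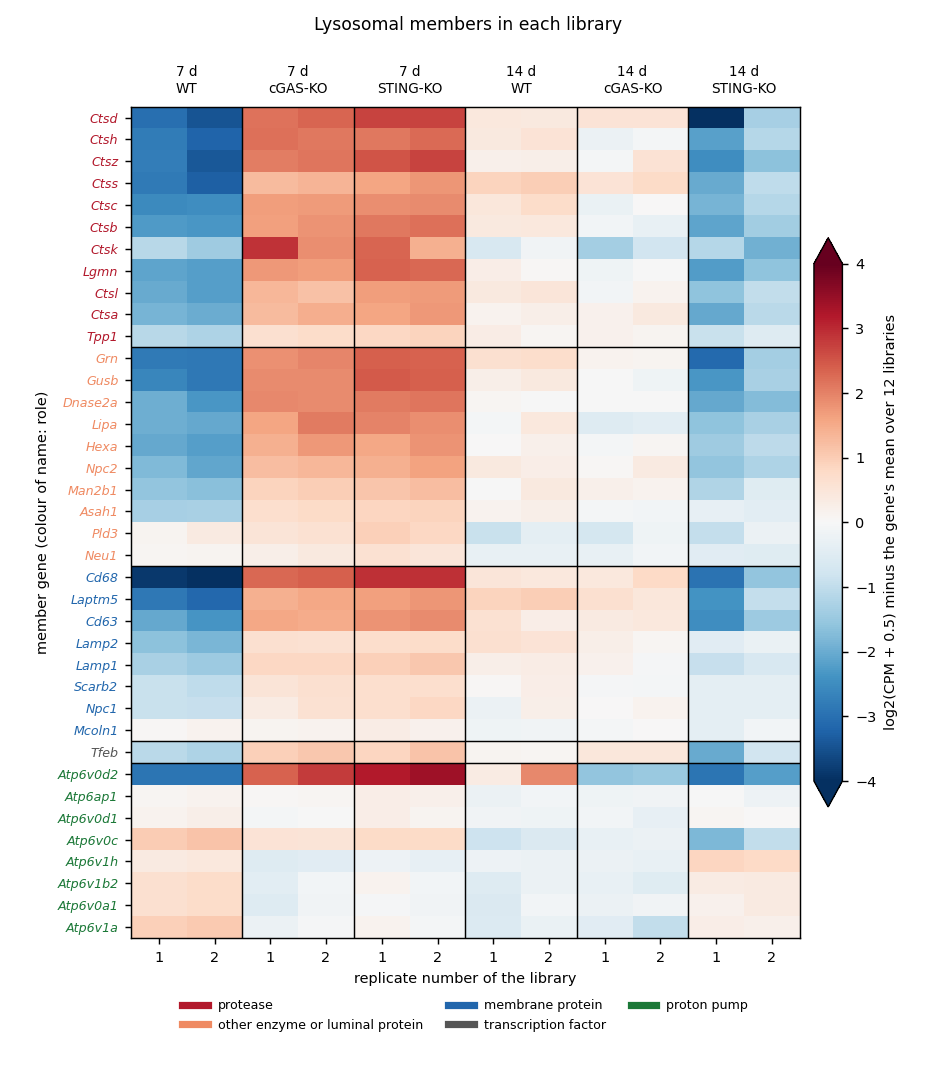
Rows are the 38 members, grouped by role, and columns are the 12 libraries, grouped by day and labelled genotype; colour is log2(CPM + 0.5) minus the gene's mean over the 12 libraries. Most proteases, luminal and membrane proteins were low in 7-day WT and 14-day STING-KO and high in the 7-day knockouts, Neu1, Pld3 and Mcoln1 being exceptions, while the 7 widely expressed pump subunits did not share that pattern.

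At 7 days, 28 members were higher in cGAS-KO than in WT and 5 were lower, where 27.8% of all genes tested were called higher and 22.4% lower. In STING-KO, 29 members were higher and 4 lower, against 26.3% and 22.6% of all genes. The median log2 change of the members was 3.25 in cGAS-KO and 3.45 in STING-KO, and that of all genes was 0.042 and 0.029. The 2 comparisons share their WT libraries. The calls divided by role: all 11 proteases were called higher in both comparisons, as were 7 of 8 membrane proteins, 8 and 9 of 10 luminal proteins and Tfeb, while every member called lower was a pump subunit and Atp6v0d2 was the only subunit called higher.

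Among proteases, Ctsd, the main aspartic protease of lysosomes, was at 177 and 131 CPM in 7-day WT, 6501 and 7168 CPM in cGAS-KO, and 9360.0 and 9431 CPM in STING-KO. Its log2 change was 5.47 ± 0.69 (adjusted p = 6.34e-05) in cGAS-KO and 5.93 ± 0.71 (adjusted p = 4.48e-05) in STING-KO. Ctsb, a cysteine protease, went from 477 and 454 CPM in WT to 7220.0 and 7948 in cGAS-KO and 9917 and 10533 CPM in STING-KO. Every knockout library was far above both WT libraries for these genes. Ctsh, an aminopeptidase, rose from 9.20 and 6.85 CPM to 313 and 295 CPM in cGAS-KO, a log2 change of 5.25 ± 0.30 (adjusted p = 3e-07). Ctsz, a carboxypeptidase, rose from 33.5 and 21.7 CPM in WT to 1320.0 and 1520.0 CPM in STING-KO, by 5.69 ± 0.35 (adjusted p = 4.04e-07). The smallest change of a protease was that of Tpp1, a tripeptidyl peptidase, at 1.88 ± 0.16 in cGAS-KO and 2.03 ± 0.16 in STING-KO. Lgmn (legumain, an asparaginyl endopeptidase that also processes other cathepsins) rose by 3.88 ± 0.22 and 4.49 ± 0.23.

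Of the other luminal proteins, Grn, whose product progranulin is cut into granulins in the lysosome, had the largest change. It was at 62.2 and 61.2 CPM in 7-day WT, 1598 and 1727 CPM in cGAS-KO, and 2342 and 2304 CPM in STING-KO, with log2 changes of 4.75 ± 0.45 (adjusted p = 8.19e-06) and 5.24 ± 0.46 (adjusted p = 5e-06). Gusb (beta-glucuronidase) rose from 16.4 and 13.8 CPM to 387 CPM in both cGAS-KO libraries and to 572 and 548 CPM in STING-KO. Dnase2a, which digests DNA inside the lysosome, rose by 4.15 ± 0.18 and 4.35 ± 0.18, from 6.11 and 4.55 CPM in WT. Lipa (acid lipase), Hexa (a hexosaminidase subunit) and Npc2 (a luminal cholesterol carrier) rose by 3.21 to 3.95 in the pair of comparisons, and Man2b1 (a mannosidase) and Asah1 (acid ceramidase) by 2.06 to 2.79.

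A pair of luminal members stayed near the WT level. Neu1, a sialidase, was at 59.2 and 59.4 CPM in WT, 64.9 and 73.0 in cGAS-KO, and 85.8 and 78.7 CPM in STING-KO. Its change was 0.22 ± 0.13 (adjusted p = 0.188) in cGAS-KO and 0.47 ± 0.13 (adjusted p = 0.0102) in STING-KO. The latter call was lost without STING-KO replicate 1 (adjusted p = 0.117), without WT replicate 1 (adjusted p = 0.0784) and without WT replicate 2 (adjusted p = 0.0674). Pld3, a phospholipase D family nuclease of the lysosome that is abundant in neurons, was at 394 and 462 CPM in WT, 514 and 550.0 in cGAS-KO and 709 and 638 CPM in STING-KO, and was not called in either comparison (adjusted p = 0.328 and 0.0504).

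Among membrane proteins, Cd68, a heavily glycosylated protein of macrophage lysosomes (ENSMUSG00000018774, mm10 chromosome 11, 69664213 to 69666153, minus strand), was at 7.74 and 5.88 CPM in 7-day WT, 590.0 and 632 CPM in cGAS-KO, and 908 and 896 CPM in STING-KO. Its log2 changes of 6.49 ± 0.41 (adjusted p = 6.75e-07) and 7.05 ± 0.42 (adjusted p = 4.18e-07) were the largest of the members with counts in every library. Laptm5, a lysosomal protein of white blood cells, rose from 39.7 and 32.8 CPM to between 791 and 1006 CPM, and Cd63, a tetraspanin, from 44.8 and 35.9 CPM to between 527 and 703 CPM. The structural proteins Lamp1 and Lamp2, which line the lysosomal membrane in all cells, rose less, by 2.21 to 2.47. Scarb2, the receptor that carries glucocerebrosidase to the lysosome, rose by 1.54 ± 0.14 and 1.62 ± 0.14, and Npc1, the cholesterol exporter, by 1.40 ± 0.17 and 1.67 ± 0.17. Mcoln1, a calcium channel of the lysosome, was at 85.4 and 90.3 CPM in WT and between 89.0 and 101 CPM in the 4 knockout libraries, with changes of 0.04 ± 0.13 and 0.14 ± 0.13 that were not called.

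**Figure D2:**
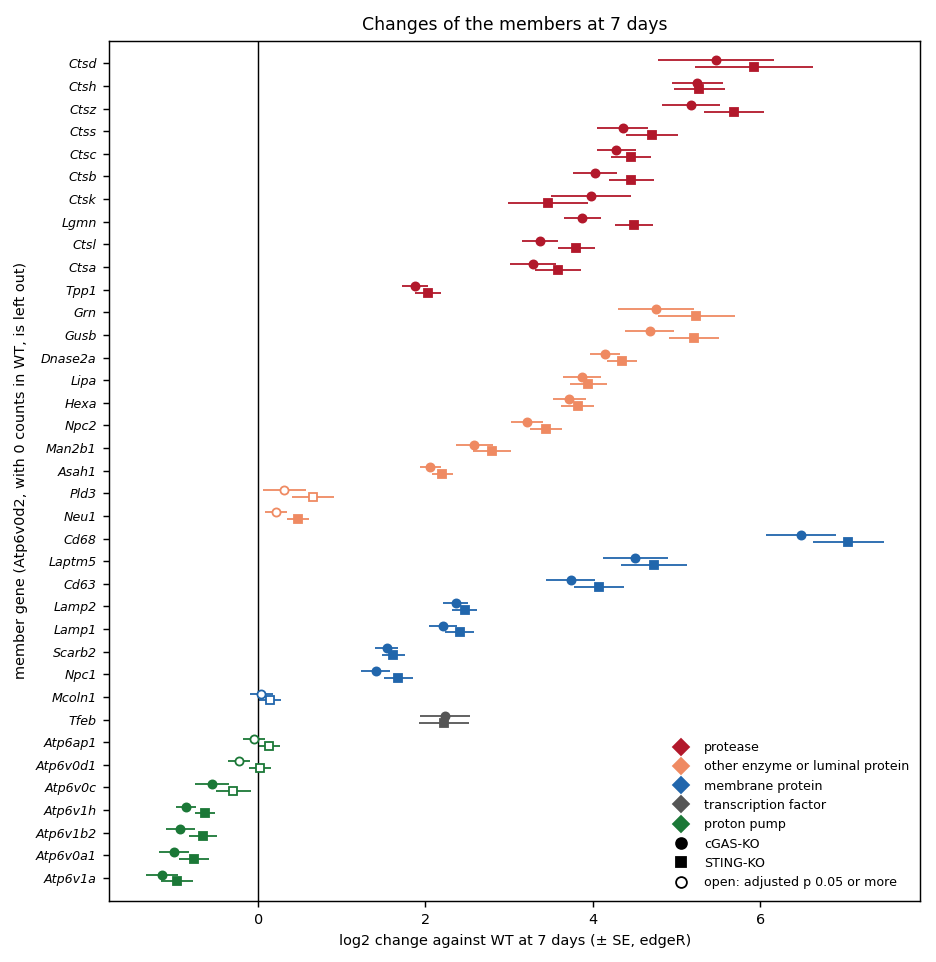
Log2 change ± SE (edgeR) of 37 members against WT at 7 days, circles for cGAS-KO and squares for STING-KO, coloured by role, with open symbols where the adjusted p was 0.05 or more; Atp6v0d2, which had 0 counts in WT, is left out. Proteases lie between 1.88 and 5.93, while no widely expressed pump subunit lies above 0.13.

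Among the pump subunits, Atp6v0d2 alone was called higher at 7 days, and the others were called lower or not called. Atp6v1a, the catalytic subunit of V1, was at 597 and 642 CPM in 7-day WT, 260.0 and 299 CPM in cGAS-KO, and 338 and 293 CPM in STING-KO. It fell by 1.15 ± 0.19 (adjusted p = 0.000357) and by 0.97 ± 0.19 (adjusted p = 0.00116) on the log2 scale. Atp6v0a1, a form of the large membrane subunit, fell by 1.0 ± 0.18 and 0.77 ± 0.18, and Atp6v1b2, the ATP-binding regulatory subunit, fell by 0.93 ± 0.17 and 0.66 ± 0.17. Atp6v1h, a regulatory subunit of V1, fell by 0.86 ± 0.12 in cGAS-KO (adjusted p = 0.000109) and by 0.64 ± 0.12 in STING-KO (adjusted p = 0.00101). Atp6v0c, the proton-carrying ring subunit, was called lower in cGAS-KO (fell by 0.55 ± 0.21, adjusted p = 0.0424). That call did not survive leaving out any 1 of the 4 libraries (adjusted p from 0.0847 to 0.186), and in STING-KO the change was -0.29 ± 0.21 (adjusted p = 0.254).

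Atp6v0d1, the widely expressed d subunit of V0, and Atp6ap1, an accessory subunit, were not called. Atp6v0d1 was at 196 and 209 CPM in WT, 169 and 177 in cGAS-KO, and 217 and 193 CPM in STING-KO. The change in cGAS-KO was -0.23 ± 0.13 (adjusted p = 0.180), and that in STING-KO, 0.02 ± 0.13 (adjusted p = 0.910), took either sign depending on the scaling of the libraries.

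Its paralogue Atp6v0d2, the d subunit of osteoclasts and macrophages (ENSMUSG00000028238, mm10 chromosome 4, 19876841 to 19922605, minus strand), had no count in either 7-day WT library. It was at 19.0 and 25.5 CPM in 7-day cGAS-KO and 33.7 and 38.9 CPM in 7-day STING-KO. Against the floor of 3 counts per library in WT, the mean of cGAS-KO was at least 137-fold higher (adjusted p = 1.77e-05) and that of STING-KO at least 225-fold higher (adjusted p = 8.5e-06). At 14 days it was at 4.21 and 13.8 CPM in WT, 0.756 and 0.852 in cGAS-KO, and 0 and 0.326 CPM in STING-KO. So its libraries fell into separate ranges for 7-day knockouts, 14-day WT and 14-day cGAS-KO, with 7-day WT and 14-day STING-KO at or near 0.

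Ctsk, a collagen-cutting protease of osteoclasts (ENSMUSG00000028111, mm10 chromosome 3, 95499256 to 95509362, plus strand), was at 2.58 and 1.94 CPM in 7-day WT, 48.0 and 23.3 CPM in cGAS-KO, and 32.8 and 17.3 CPM in STING-KO. It rose by 3.98 ± 0.48 (adjusted p = 4.26e-05) and 3.47 ± 0.48 (adjusted p = 0.000123). At 14 days it lay between 1.24 and 5.43 CPM in all 6 libraries. Ctsk is also known from fibroblasts, and 10 fibroblast markers summed to 137 and 118 CPM in 7-day WT, 4931 and 3177 CPM in 7-day cGAS-KO and 2131 and 1804 CPM in 7-day STING-KO, with 9 of 10 called higher in each. A list of 10 osteoclast markers summed to 216 and 184 CPM in 7-day WT and to between 382 and 501 CPM in the 7-day knockouts, with 6 of its 8 tested genes called higher in each comparison. The 14-day sums of this list were 486 and 543 CPM for WT, 514 and 579 CPM for cGAS-KO, and 309 and 245 CPM for STING-KO. For 14-day WT and cGAS-KO the list thus lay within or above its range in the 7-day knockouts, although Ctsk was low there. Within that list, Dcstamp did not exceed 0.260 CPM and Ocstamp did not exceed 0.362 CPM in any library. The part of these cells in the level of Ctsk was not tested.

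**Figure D3:**
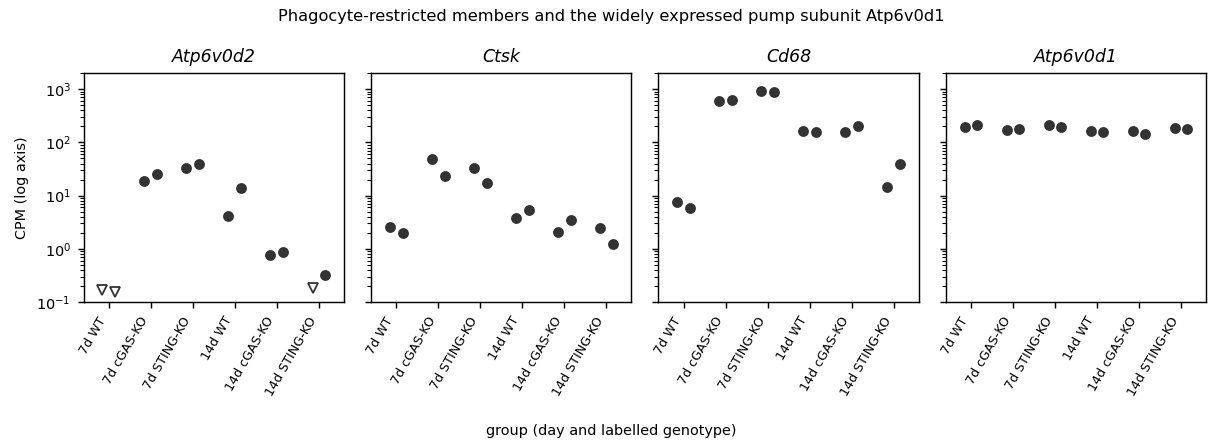
CPM on a log axis, the same for all 4 panels, of the 3 phagocyte-restricted members and of Atp6v0d1 in each library, by day and labelled genotype; each point is 1 library, and an open triangle marks a count of 0, drawn at the floor of 3 counts. Atp6v0d1 stayed between 143 and 217 CPM in all 12 libraries, while Cd68 ranged from 5.88 to 908 CPM.

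As a description, the mean log2(CPM + 0.5) of the 3 restricted members minus that of the 33 ubiquitous members was 2.92 higher in 7-day cGAS-KO than in 7-day WT, and 2.93 higher in 7-day STING-KO. At 14 days the same difference from WT was -0.91 in cGAS-KO and -1.42 in STING-KO. In 7-day WT the term of Atp6v0d2, at 0 counts, is set by the offset of 0.5. Without Atp6v0d2, an alternative chosen after seeing the data, the 4 values were 2.76 and 2.55 at 7 days and -0.11 and -0.84 at 14 days, so most of the 14-day value in cGAS-KO came from that gene. The ubiquitous class includes the 7 pump subunits other than Atp6v0d2, which shift its mean. Their median change was -0.86 in cGAS-KO and -0.64 in STING-KO at 7 days, and -0.01 and 0.60 at 14 days. The difference between the classes was not computed without these subunits, so it does not measure phagocyte restriction alone. Within the ubiquitous class of 33, 23 members were called higher in cGAS-KO at 7 days and 5 lower, with a median of 2.36. The shares of all genes were 27.8% higher and 22.4% lower. Ctsb, Ctsc, Ctsd, Ctsh, Ctsz, Grn, Gusb and Dnase2a, all ubiquitous, had larger changes than Ctsk in both comparisons. In STING-KO the changes of Ctsa, Ctsl, Cd63, Lipa, Hexa and Lgmn were larger too. No ubiquitous member reached the change of Cd68.

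Markers of several cell types moved in the same libraries, phagocytes among them. The summed level of 12 microglial markers was 348 and 328 CPM in 7-day WT and 3599 to 4997 CPM in the 7-day knockouts, and all 12 were called higher in both comparisons. For 12 macrophage markers the sums were 28.1 and 15.9 CPM in 7-day WT, with 1 marker without a count, and 2682 to 5169 CPM in the 7-day knockouts. Of the 11 macrophage markers tested, 11 were called higher in cGAS-KO and 10 in STING-KO. Gpnmb, a lysosomal glycoprotein counted in that list, reached 4557 CPM in STING-KO, was at 10.1 and 4.14 CPM in WT, and made up most of the sum in the 7-day knockouts. Without it the other 11 summed to 18.0 and 11.7 CPM in 7-day WT and to between 540.0 and 611 CPM in the 7-day knockouts. Choroid plexus markers, 10 in number, summed to 340.0 and 216 CPM in 7-day WT and 3301 to 6134 CPM in the 7-day knockouts, with all 10 called higher in both. Oligodendrocyte markers, 12 in number, summed to 8216 and 5601 CPM and to between 12343 and 19111 CPM, with 8 called higher in cGAS-KO and 9 in STING-KO, and fibroblast markers are given above. In the opposite direction, 12 neuronal markers summed to 8488 and 9137 CPM in 7-day WT and to 1687 to 2638 CPM in the 7-day knockouts, and all 12 were called lower in both comparisons. Their part in the members' results was not tested. In bulk tissue, fewer cells of a type and less RNA per cell cannot be told apart.

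Levels per exon length (TPM) allow members to be ranked within a library. In 7-day WT the highest members were Pld3, at 517 and 587 TPM, Atp6v0d1, at 419 and 434 TPM, and Atp6v1b2, at 404 and 418 TPM. Lamp1, Atp6v1a and Atp6ap1, at 329 to 394 TPM, did not separate from one another. In the 7-day STING-KO libraries Ctsd came first, at 12465 and 12413 TPM, followed by Ctsb, at 5131 and 5387 TPM, Ctss, at 3211 and 3615 TPM, and Ctsz, at 2869 and 3264 TPM; the ranges of Ctss and Ctsz overlapped. In 14-day STING-KO, Ctsd was at 149 and 906 TPM, far apart, and Lamp1 was at 514 and 576 TPM.

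Paralogues of pump subunits were also compared in pairs. By TPM, Atp6v0d2 made up 0% of the Atp6v0d1 and Atp6v0d2 total in 7-day WT, 6.90% and 8.67% in cGAS-KO, and 9.28% and 11.7% in STING-KO. Tcirg1 (a3), the form of the large V0 subunit best known from osteoclasts and immune cells, made up 4.94% and 4.32% of the total with Atp6v0a1 in 7-day WT, 64.6% and 57.5% in cGAS-KO, and 59.9% and 60.2% in STING-KO. It was at 20.4 and 18.8 CPM in WT and 306 to 365 CPM in the knockouts, and rose by 4.0 ± 0.27 (adjusted p = 6.06e-07) and 4.18 ± 0.27 (adjusted p = 4.22e-07), while Atp6v0a1 fell. Atp6v0a2, a further form of this subunit outside the pair, was at 56.4 and 62.7 CPM in 7-day WT. In the 7-day knockouts Atp6v0a2 was at 81.6 to 120 CPM.

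At 7 days the paralogues of the small membrane subunit e and of the V1 stalk subunit G also moved in opposite directions. Atp6v0e rose by 1.70 ± 0.18 in cGAS-KO and 1.91 ± 0.18 in STING-KO, while its paralogue Atp6v0e2, prominent in brain, fell by 1.52 ± 0.19 and 1.46 ± 0.19. Atp6v1g1 rose by 1.12 ± 0.15 and 1.45 ± 0.15, and Atp6v1g2, the form typical of neurons, fell by 2.00 ± 0.17 and 1.89 ± 0.17. The share of Atp6v1g1 in its pair was 26.9% and 24.3% in 7-day WT and 72.5% to 78.5% in the 7-day knockouts. In 14-day STING-KO this share was 41.1% and 34.0%. The share of Atp6v0e in its pair was 5.38% and 4.72% in 7-day WT, 20.4% and 16.5% in 14-day STING-KO, and 26.6% and 20.1% in 14-day cGAS-KO. At 7 days, in each of these pairs the 4 knockout libraries lay apart from both WT libraries. Of 17 other pump subunits, 14 were tested, of which 4 were called higher and 6 lower in cGAS-KO, and 5 higher and 5 lower in STING-KO. Of all genes, 27.8% were called higher and 22.4% lower in cGAS-KO, and 26.3% and 22.6% in STING-KO. The 4 higher calls in cGAS-KO thus lay near the share of all genes.

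**Figure D4:**
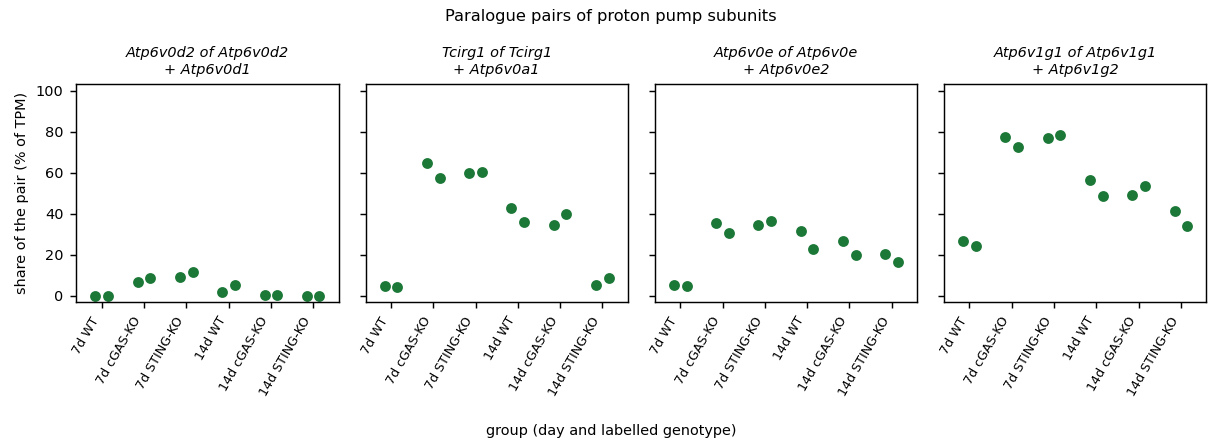
Share of 1 paralogue in the summed TPM of its pair, in percent, for 4 pairs of pump subunits; each point is 1 library, by day and labelled genotype. In the pair of Tcirg1 and Atp6v0a1, Tcirg1 held 57.5% to 64.6% in the 7-day knockouts, 34.6% to 42.6% in 14-day WT and cGAS-KO, and 4.32% to 8.88% in 7-day WT and 14-day STING-KO. Atp6v0e held 4.72% and 5.38% in 7-day WT but 16.5% and 20.4% in 14-day STING-KO. Atp6v1g1 held 24.3% and 26.9% in 7-day WT and 34.0% and 41.1% in 14-day STING-KO.

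Promoters of the members were searched for the CLEAR core TCACGTGA, which reads the same on both strands and contains the E-box CACGTG. RefSeq windows from 250 bases before to 50 bases after the transcription start (GRCm38.p6) were at hand for 31 of the 38 members. The CLEAR core was present in 5 of these 31 (16.1%) and in 1.12% of all 27025 genes with a window. The E-box CACGTG was present in 8 (25.8%, against 8.09% of all genes), the related sequence TCATGTG on either strand in 6 (19.4%, against 4.31%), and GAGGAAGT, a core bound by the myeloid factor PU.1, on either strand in 3 (9.68%, against 3.69%). The 5 stretches with the CLEAR core are shown because their genes included members called higher, called lower and not called at 7 days. The core is in capitals, on the strand of the gene:
Ctsd: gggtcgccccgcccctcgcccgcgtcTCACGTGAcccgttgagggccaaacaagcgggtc
Ctsa: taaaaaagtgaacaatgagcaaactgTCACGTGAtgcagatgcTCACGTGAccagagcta
Mcoln1: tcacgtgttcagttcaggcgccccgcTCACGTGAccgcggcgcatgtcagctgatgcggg
Atp6v0d1: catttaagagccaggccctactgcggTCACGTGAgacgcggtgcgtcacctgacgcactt
Atp6v1a: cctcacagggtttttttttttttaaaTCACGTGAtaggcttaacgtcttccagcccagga

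The Ctsd stretch is at chr7:142387893-142387952 on the minus strand, with the core starting 99 bases before the transcription start. The Ctsa stretch, at chr2:164833734-164833793 on the plus strand, holds 2 copies of the core. Those of Mcoln1 (chr8:3500447-3500506, plus strand), Atp6v0d1 (chr8:105566035-105566094, minus strand) and Atp6v1a (chr16:44139358-44139417, minus strand) hold 1 each. With the core in their windows, Ctsd rose by 5.47 ± 0.69 and Ctsa, a carboxypeptidase, by 3.29 ± 0.27 in 7-day cGAS-KO, Mcoln1 and Atp6v0d1 were not called, and Atp6v1a fell by 1.15 ± 0.19. A match describes the letters of the window only. Tfeb itself was at 10.3 and 9.15 CPM in 7-day WT and 40.6 to 49.7 CPM in the 7-day knockouts, and rose by 2.23 ± 0.30 (adjusted p = 7.4e-05) and 2.22 ± 0.30 (adjusted p = 8.2e-05).

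Genes around the members were counted from lists. In 7-day cGAS-KO 27.8% of all genes were called higher and 22.4% lower, and in 7-day STING-KO 26.3% and 22.6%. Of 40 other lysosomal hydrolases, 39 were tested, with 29 called higher and 2 lower in 7-day cGAS-KO and 32 higher and 1 lower in STING-KO. Scpep1, a serine carboxypeptidase, rose by 3.24 ± 0.16 and 3.49 ± 0.16. Of 33 tested membrane proteins and transporters, 21 were higher and 2 lower in cGAS-KO and 22 higher and 4 lower in STING-KO, among them Slc37a2, a sugar phosphate transporter (4.94 ± 0.33 and 5.34 ± 0.33), and Slc11a1, a metal ion transporter of phagosomes (4.83 ± 0.33 and 4.65 ± 0.33), which were named for their small adjusted p and not for the size of the change. Among 15 genes of enzyme sorting, 8 were higher and 3 lower in cGAS-KO and 9 higher and 3 lower in STING-KO. Cln8, which takes newly made enzymes out of the endoplasmic reticulum, rose by 1.47 ± 0.15 and 1.87 ± 0.16. Of 8 tested protease inhibitors 7 were higher in each comparison, among them Cstb (cystatin B, an inhibitor of cathepsins), by 2.74 ± 0.18 and 3.19 ± 0.18. Among 20 genes of the TFEB family and nutrient sensing, 10 were higher and 5 lower in cGAS-KO and 11 higher and 4 lower in STING-KO. The lower calls of this list and of the sorting list lay near the share of all genes. Fnip2, a partner of folliculin, rose by 1.69 ± 0.15 and 2.09 ± 0.15, while Rragb, a Rag GTPase, fell by 1.68 ± 0.18 in STING-KO. In the autophagy list of 24 genes there were calls in both directions, at shares near those of all genes (27.8% higher and 22.4% lower in cGAS-KO): 6 higher and 6 lower in cGAS-KO, and 7 higher and 6 lower in STING-KO. Gabarap, an autophagosome coat protein, rose by 1.68 ± 0.16 in cGAS-KO, while its paralogue Gabarapl1 fell by 1.31 ± 0.13.

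At 14 days no member was called between cGAS-KO and WT by edgeR, where 0% of all genes were called higher and 0.0303% lower. DESeq2 called 1 member, Atp6v0d2, and at an unadjusted p below 0.05 edgeR had 7 members lower and 0 higher, against 5.55% and 5.47% of all genes. The median log2 change of the members was -0.07, and that of all genes -0.011. Atp6v0d2, with its levels given above, had a change of -3.48 ± 0.61 (unadjusted p = 0.000152, adjusted p = 0.104). The libraries of the 2 groups did not overlap, but the WT libraries differed from each other, at 4.21 and 13.8 CPM. Without WT replicate 1 the gene was called lower (adjusted p = 0.0200), and without WT replicate 2 it was not (adjusted p = 0.328). Over the other settings its adjusted p ran from 2.35e-07 with DESeq2 to 0.168 without the filter.

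The remaining members of lowest p at 14 days between cGAS-KO and WT were Ctsc, the protease that activates serine proteases of immune cells, Lipa and Lamp2. Ctsc stood at 80.0 and 96.9 CPM in WT against 48.1 and 59.0 CPM in cGAS-KO (-0.72 ± 0.20, adjusted p = 0.255). Lipa had a change of -0.66 ± 0.20 (adjusted p = 0.285) and Lamp2 of -0.43 ± 0.14 (adjusted p = 0.313). Cd68, at 165 and 158 CPM in WT, overlapped the cGAS-KO libraries at 160.0 and 206 CPM, with a change of 0.18 ± 0.32 whose sign turned without cGAS-KO replicate 2 (-0.01). Ctsk had a change of -0.75 ± 0.50 (adjusted p = 0.612) and Atp6v0d1 of -0.05 ± 0.13 (adjusted p = 0.925). Microglial markers summed to 2593 and 2577 CPM in cGAS-KO, from 2959 and 3066 CPM in WT, and macrophage markers to 99.0 and 113 CPM from 293 and 469 CPM. Gpnmb alone gave 47.3 and 53.6 CPM of the former sum and 177 and 340.0 CPM of the latter. Of the 11 macrophage markers tested, 2 were called lower. Their part in the values of Atp6v0d2 was not tested.

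In 14-day STING-KO, 4 members were higher and 27 lower than in 14-day WT, where 16.5% of all genes were called higher and 17.4% lower. The median change of the members was -1.37, against -0.035 for all genes. Lowered were 10 of 11 proteases, 8 of 10 luminal proteins, 6 of 8 membrane proteins and Tfeb, while the 4 members called higher were all pump subunits. Grn was at 690.0 and 731 CPM in WT and 51.1 and 174 CPM in STING-KO, and fell by 2.66 ± 0.41 (adjusted p = 0.000697). Cd68 was at 14.8 and 39.2 CPM in STING-KO and fell by 2.58 ± 0.34 (adjusted p = 0.000319). Ctss, a protease of antigen-presenting cells, fell by 2.37 ± 0.28, Laptm5 by 2.44 ± 0.36 and Gusb by 2.05 ± 0.26. The smallest called falls within the proteases, luminal proteins and membrane proteins were those of Tpp1 (0.89 ± 0.15), Asah1 (0.56 ± 0.12) and Scarb2 (0.56 ± 0.14). Asah1 was not called in a fit of the 4 libraries compared (adjusted p = 0.0541), nor was Scarb2 (adjusted p = 0.0637), which also lost its call without WT replicate 2 (adjusted p = 0.0569).

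The 2 STING-KO libraries of 14 days differed from each other for many members. Ctsd was at 1945 and 1904 CPM in WT and at 87.7 and 575 CPM in STING-KO, and fell by 2.54 ± 0.60 (adjusted p = 0.00807). Without STING-KO replicate 2 its change was -4.47, and without replicate 1 it was -1.74. It was not called without the filter (adjusted p = 0.0776) or with the 4 libraries compared alone (adjusted p = 0.0774). Atp6v0d2 had 0 and 0.326 CPM in STING-KO and was called lower (-5.79 ± 0.88, adjusted p = 0.000676). With the library at 0 as the only STING-KO library, its fitted change was -10.40, which is no measure of size. Ctsk had a change of -1.30 ± 0.56 (adjusted p = 0.0982).

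Pump subunits were higher in 14-day STING-KO. Atp6v1h was at 92.3 and 90.8 CPM in WT and 193 and 185 CPM in STING-KO, and rose by 1.04 ± 0.12 (adjusted p = 0.000135). Atp6v1b2 rose by 0.72 ± 0.17, Atp6v1a by 0.65 ± 0.19 and Atp6v0a1 by 0.60 ± 0.18 (adjusted p = 0.0230). The call of Atp6v0a1 was lost without WT replicate 1 (0.38, adjusted p = 0.204) and without STING-KO replicate 2 (adjusted p = 0.0917), and it was not called with the 4 libraries compared alone (adjusted p = 0.0895). Atp6v0c fell by 0.64 ± 0.21 (adjusted p = 0.0375), and Atp6v0d1, at 0.22 ± 0.13, was not called. Tcirg1 fell by 2.43 ± 0.25 (adjusted p = 7.28e-05), the opposite direction to its paralogue Atp6v0a1. All 12 microglial markers were called lower in these libraries and summed to 605 and 1229 CPM, 6 of 12 neuronal markers were called higher, and all 12 markers of striatal projection neurons were called higher. Their part in the members' results was not tested.

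**Figure D5:**
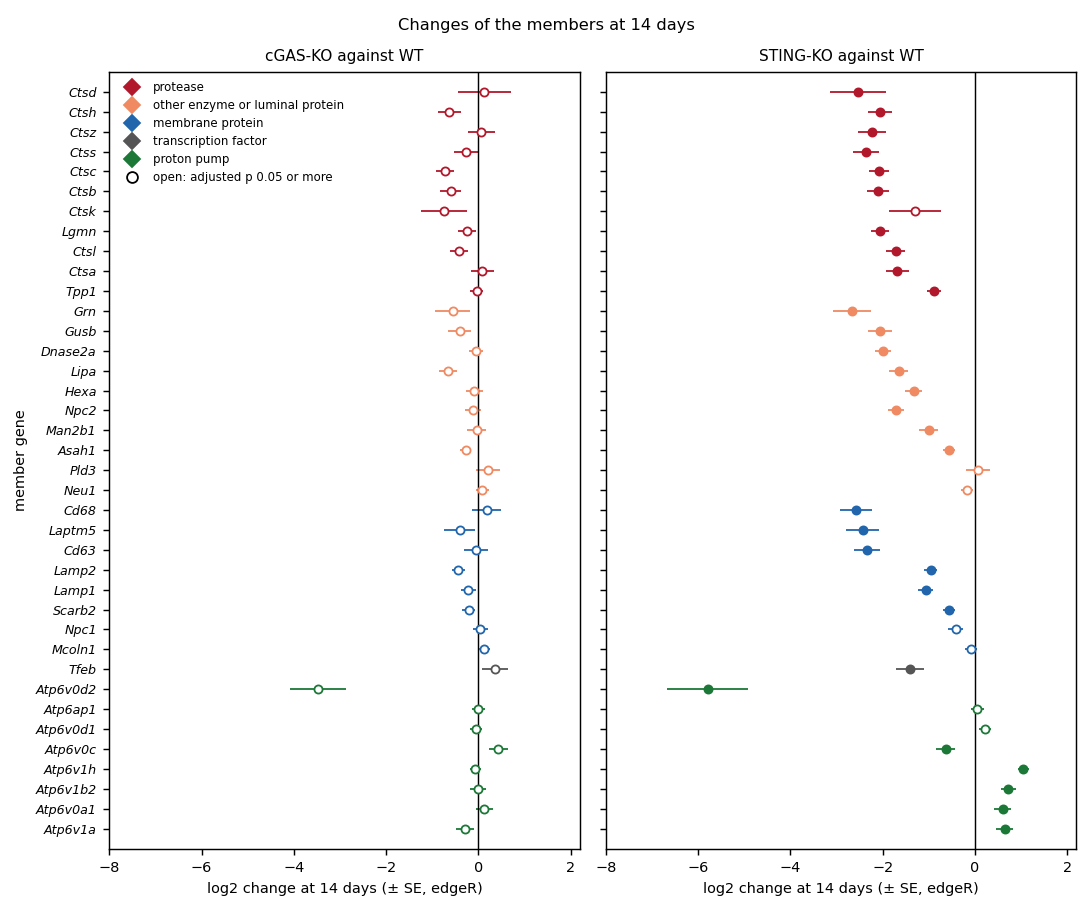
Log2 change ± SE (edgeR) of the 38 members against WT at 14 days, coloured by role, with open symbols where the adjusted p was 0.05 or more. In cGAS-KO, on the left, no member was called and Atp6v0d2 lies apart at -3.48; in STING-KO, on the right, 27 members were called lower and 4 pump subunits higher.

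The knockouts were also compared with each other, which leaves the WT libraries out of the difference. At 7 days no member was called between cGAS-KO and STING-KO by edgeR or DESeq2, where edgeR called 0.0858% of all genes higher and 0.0757% lower. Taking an unadjusted p below 0.05, 2 members were lower in cGAS-KO and 0 higher, against 3.98% and 4.89% of all genes. Lgmn was at 1288 and 1246 CPM in cGAS-KO and 1983 and 1901 CPM in STING-KO, -0.62 ± 0.20 (adjusted p = 0.282), and Ctsl, a cysteine protease, had -0.44 ± 0.20 (adjusted p = 0.546). Next by p came Gusb, at -0.53 ± 0.25 (adjusted p = 0.570), and Neu1, at -0.25 ± 0.13 (adjusted p = 0.645). Cd68 had -0.56 ± 0.32, Atp6v0d2 -0.70 ± 0.41 and Atp6v0d1 -0.25 ± 0.13. Ctsk, at 0.51 ± 0.38, turned its sign without cGAS-KO replicate 1 (-0.10). The values of 36 members were lower in cGAS-KO, with a median of -0.23. The median of all genes was 0.001, so their signs were split about evenly. All members were read in the same libraries, so their signs are not independent of one another. A p above the threshold does not show that the groups were alike.

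At 14 days, 24 members were higher in cGAS-KO than in STING-KO and 3 lower, where 18.2% of all genes were called higher and 17.7% lower. Cd68 rose by 2.77 ± 0.35 (adjusted p = 0.000312) and Cd63 by 2.29 ± 0.28. Ctsd had the largest value of a protease, 2.67 ± 0.61 (adjusted p = 0.00633), and it was 4.60 without STING-KO replicate 2. It was not called without the filter (adjusted p = 0.064) or with the 4 libraries compared alone (adjusted p = 0.0695). Grn rose by 2.11 ± 0.40 and reached 3.26 without STING-KO replicate 2. Dnase2a, at 24.5 CPM in both cGAS-KO libraries and 5.64 and 7.10 CPM in STING-KO, rose by 1.94 ± 0.17 (adjusted p = 8.96e-05). The smallest calls within the proteases, luminal proteins and membrane proteins were Tpp1 (0.85 ± 0.15), Man2b1 (0.97 ± 0.21, and 0.64 without STING-KO replicate 1) and Lamp2 (0.53 ± 0.14). Lamp2 was not called without cGAS-KO replicate 1 (adjusted p = 0.0897), without STING-KO replicate 1 (adjusted p = 0.0722) or with the 4 libraries compared alone (adjusted p = 0.0608). Ctsk (0.55 ± 0.58, adjusted p = 0.490) and Atp6v0d2 (2.31 ± 1.30, adjusted p = 0.193) were not called by edgeR, and DESeq2 called Atp6v0d2 (adjusted p = 0.0169). Lower in cGAS-KO were Atp6v1h (fell by 1.11 ± 0.12), Atp6v1a (fell by 0.94 ± 0.19) and Atp6v1b2 (fell by 0.73 ± 0.17), the last not called without cGAS-KO replicate 2 (adjusted p = 0.0608), while Atp6v0c rose by 1.07 ± 0.21, which was 0.70 without STING-KO replicate 1.

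Between the times, the members moved up in WT and down in the knockouts. In WT, 27 members were higher at 14 than at 7 days and 7 lower, where 24.1% of all genes were called higher and 19.7% lower. Cd68 rose by 4.57 ± 0.39 (adjusted p = 9.71e-06), Ctss by 3.97 ± 0.30 and Laptm5 by 3.97 ± 0.38. Atp6v0d2, at 0 at 7 days, was at least 55-fold higher at 14 days over the floor of 3 counts per library (adjusted p = 0.000179). Ctsd rose by 3.64 ± 0.63, Grn by 3.53 ± 0.43, Tpp1 by 1.37 ± 0.15 and Npc1 by 0.95 ± 0.17. Ctsk, with 1.03 ± 0.53, was not called (adjusted p = 0.140), but passed with the 4 libraries compared alone (adjusted p = 0.0422). Pump subunits were lower: Atp6v0c went from 176 and 193 CPM to 49.0 and 58.0 CPM and fell by 1.78 ± 0.21, and Atp6v1h fell by 0.60 ± 0.12. Atp6v0d1 was at -0.35 ± 0.13 (adjusted p = 0.0529) and was called lower under 4 other settings, with adjusted p from 0.0156 to 0.0384. Neu1 fell by 0.39 ± 0.13 (adjusted p = 0.0328) and lost that call with any 1 of the 4 libraries removed (adjusted p from 0.0807 to 0.139). Pld3 fell by 0.86 ± 0.26. The sums of microglial markers were 348 and 328 CPM at 7 days and 2959 and 3066 CPM at 14 days, and all 12 were called higher, while 11 of 12 neuronal markers were called lower. Their part was not tested.

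In cGAS-KO, 28 members were lower at 14 than at 7 days and none was higher by edgeR or DESeq2, where 17% of all genes were called lower and 13.4% higher. At an unadjusted p below 0.05 by edgeR, 31 members were lower and 0 higher, against 22.4% and 19.3% of all genes. Atp6v0d2 fell by 4.78 ± 0.58 (adjusted p = 0.000243) and Ctsk by 3.69 ± 0.46 (adjusted p = 0.000237), followed by Ctsh, which fell by 2.33 ± 0.26. Cd68 fell by 1.74 ± 0.33. Lipa, at 242 and 339 CPM at 7 days and 56.5 and 60.7 CPM at 14 days, fell by 2.31 ± 0.21. Ctss (-0.65 ± 0.27, adjusted p = 0.0874) and Laptm5 (-0.94 ± 0.34, adjusted p = 0.0557), the 2 members known from white blood cells, were not called. Leaving out a library left 19 to 22 members called. Among those near the threshold, Atp6v1a fell by 0.55 ± 0.19, with -0.31 without 14-day replicate 2 (adjusted p = 0.278) and -0.87 without 14-day replicate 1. Its call was lost under 7 of 12 alternatives, among them both 7-day replicates left out in turn (adjusted p = 0.0883 and 0.234). Lamp2, Tpp1 and Atp6v0c lost their calls with any 1 of the 4 libraries removed (adjusted p from 0.0520 to 0.137), Cd63 without 14-day replicate 1 (adjusted p = 0.0644), and Neu1 without 14-day replicate 1 (adjusted p = 0.0844) or 7-day replicate 2 (adjusted p = 0.107). Macrophage markers summed to 2682 and 3018 CPM at 7 days and 99.0 and 113 CPM at 14 days, or 585 and 553 CPM and 51.6 and 59.7 CPM without Gpnmb. Fibroblast markers summed to 4931 and 3177 CPM and to 192 and 176 CPM, choroid plexus markers to 3301 and 6134 CPM and to 821 and 519 CPM, and markers of striatal projection neurons to 211 and 480.0 CPM and to 1764 and 2888 CPM. The sums of microglial markers were 3599 and 4093 CPM and 2593 and 2577 CPM. Their part was not tested.

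In STING-KO, 33 members were lower at 14 than at 7 days and 1 was higher, where 29.5% of all genes were called lower and 27.4% higher. All 30 members outside the pump were among those called lower. Cd68 fell by 5.07 ± 0.38 (adjusted p = 1.66e-06), Ctsd by 4.83 ± 0.67, Ctsz by 4.63 ± 0.34, Grn by 4.37 ± 0.44 while Gusb fell by 4.17 ± 0.28. The smallest fall among the non-pump members was that of Mcoln1, which fell by 0.48 ± 0.13 (adjusted p = 0.00945) and was not called without 14-day replicate 1 (adjusted p = 0.0674), without 7-day replicate 1 (adjusted p = 0.0697) or with the 4 libraries compared alone (adjusted p = 0.0623). Atp6v1h was the member that rose, by 1.09 ± 0.12 (adjusted p = 1.75e-05). Atp6v0c fell by 2.12 ± 0.22, Atp6v0d2 was called lower (adjusted p = 1.24e-05), and Atp6v0d1 was at -0.15 ± 0.13 (adjusted p = 0.354). Atp6ap1 fell by 0.35 ± 0.13 (adjusted p = 0.0398) and was not called without 14-day replicate 2 (adjusted p = 0.125), without 7-day replicate 1 (adjusted p = 0.136) or 2 (adjusted p = 0.0873), or with the 4 libraries compared alone (adjusted p = 0.131). Macrophage markers summed to 5169 and 5061 CPM at 7 days and 36.1 and 57.8 CPM at 14 days, or 611 and 540.0 CPM and 33.5 and 46.2 CPM without Gpnmb, and their part was not tested.

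The difference between the knockout effects at 14 and at 7 days was tested as an interaction. It was called negative for 28 members and positive for 5 in cGAS-KO, where 21% and 15.7% of all genes were called so, and negative for 29 and positive for 4 in STING-KO, where the shares of all genes were 27.6% and 24.3%. All members called positive were pump subunits.

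Where genes overlap on the opposite strand, reads of a member and its neighbour cannot be told apart without a known strand setting. This concerns mainly Ctsa and Pltp, Ctsb and Fdft1, Ctsz and Nelfcd, Grn and Fam171a2, Dnase2a and Mast1, Npc1 and Rmc1, and Atp6v1h and Rgs20. The highest level of any such neighbour was 234 CPM, that of Pltp. For Dnase2a, at 4.55 to 111 CPM, the neighbour Mast1 was of a like level, at 9.60 to 86.5 CPM.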

How the data were processed

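Per the labels' protocols, polyA+ libraries of Trizol-extracted RNA were read as paired ends on an Illumina instrument. The authors deposited raw counts per Ensembl gene ID; the submitters' processing notes name HISAT2, featureCounts and mm10. Versions, annotation release and strandedness are not given in the sources used here.

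Symbols and exon lengths came from GENCODE M21 (GRCm38, which is mm10), with 54409 of 54532 IDs named. The test was edgeR 4.0.16 (R 4.3.3): filterByExpr (minimum count 10, minimum total 15) kept 19822 genes, TMM scaling was used, and 1 quasi-likelihood fit of 6 groups (robust, not the legacy form) left 6 residual degrees of freedom. The biological coefficient of variation was 0.194. The SE of a change was taken as its size divided by the root of its F statistic. TPM used exon-union lengths. On simulated counts for cGAS-KO against WT at 7 days (19221 genes), 39% of 100 genes changed 2-fold and 81% of 100 changed 4-fold were recovered, with 5 false calls of 125. For 14 days (19222 genes) it was 43% and 85%, with 9 false of 137, above the 5% aimed at. In each simulation only these genes were changed, and all groups otherwise shared 1 mean per gene. In the data, 27.8% of genes were called higher and 22.4% lower for cGAS-KO against WT at 7 days. The Benjamini-Hochberg cut-off depends on the share of changed genes, so the rates for 7 days do not describe that comparison.

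Members, gene lists and tests were chosen with earlier results of these data known. Named in each comparison are the 3 restricted members, Atp6v0d1, and in each role the 2 largest and the smallest called change, or, with fewer than 5 calls, every call and the 4 uncalled members of smallest p. From each related list the genes of smallest adjusted p at 7 days are named; the other members are given by role after their values were seen. The libraries of a group differed by more than counting noise in every group. Alternatives were DESeq2 1.42.0, its size factors, other filters, other libraries in the fit, the legacy quasi-likelihood fit, a replicate block and leaving out each library.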

Additional observations from a re-analysis of the deposited data

Results flagged for a closer look

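The knockout effect differed between 14 and 7 days, by an interaction term of the edgeR fit, for 33 of the 38 members in cGAS-KO and for 33 in STING-KO. In cGAS-KO the log2 change at 14 days minus that at 7 days was -6.31 for Cd68, -5.88 for Ctsh, -5.34 for Ctsd, -5.31 for Grn, -5.09 for Gusb, -4.91 for Laptm5, -4.72 for Ctsk, -2.33 for Asah1, -1.92 for Tpp1 and -1.36 for Npc1. For pump subunits it was 1.13 for Atp6v0a1 and 0.80 for Atp6v1h. In STING-KO the difference was -9.63 for Cd68, -8.47 for Ctsd, -7.91 for Ctsz, -7.90 for Grn, -7.27 for Gusb, -7.17 for Laptm5, -4.77 for Ctsk, -2.92 for Tpp1, -2.09 for Npc1 and -0.65 for Neu1, the last lost without 7-day STING-KO replicate 1 (adjusted p = 0.0653) or 7-day WT replicate 1 (adjusted p = 0.0504). Atp6v0a1 stood at 1.37 and Atp6v1h at 1.68. For Atp6v0d2 no size is given, because it had 0 counts in 7-day WT; the adjusted p was 1.54e-05 in cGAS-KO and 2.58e-06 in STING-KO. Each of these differences contains the 7-day WT libraries.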

How the results depend on the processing

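Counts of called members kept within 1.5 times the value reported under the alternatives run, apart from cGAS-KO against WT at 14 days, where 1 member was called with DESeq2 and 1 without 14-day WT replicate 1, against 0. With a library left out, the count was 32 for cGAS-KO and 31 to 32 for STING-KO against WT at 7 days, and 0 to 1 and 28 to 30 at 14 days. Between the knockouts it was 0 at 7 and 26 to 27 at 14 days. Between the times it was 32 to 33 in WT, 19 to 22 in cGAS-KO and 32 to 33 in STING-KO, and for the differences of effect 31 to 33 and 32 to 35. The lone library left in a group is then taken to vary like the others.

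The score of restricted against ubiquitous members at 7 days, 2.92 and 2.93, became 2.62 and 2.64 with Ctss and Laptm5 counted as restricted, 3.15 and 3.16 by TPM, and 2.76 and 2.55 without Atp6v0d2, which was chosen after seeing the data and gave -0.11 and -0.84 at 14 days in place of -0.91 and -1.42. With a library left out it ran from 2.78 to 3.05 and from 2.80 to 3.05, and at 14 days from -1.19 to -0.63 and from -1.71 to -1.14. None of these alternatives left the pump subunits out of the ubiquitous class.

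Over the named members, 1614 alternative values kept direction and call, 58 lost the call, 9 gained it and 10 turned sign, all of them changes that had not been called. Atp6v0d1 in 7-day STING-KO was -0.016 with DESeq2's size factors and with its test, -0.019 without the filter, -0.037 with the stricter filter, -0.000408 with the libraries compared alone, -0.112 without STING-KO replicate 1 and -0.057 without WT replicate 1. Without 14-day cGAS-KO replicate 2, Cd68 was -0.012 and Atp6v0d1 0.045 against WT, and Ctsk was -0.103 between the 7-day knockouts without cGAS-KO replicate 1. With a library left out, these 4 ran from -0.112 to 0.072, from -0.012 to 0.345, from -0.162 to 0.045 and from -0.103 to 1.028. The cause was not tested.

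Same-numbered libraries deviated together weakly at most, and not in all pairs (correlation from -0.122 to 0.243 over 15 pairs of groups, 4 of them over 0.1). With the replicate block, members called against WT were 33 and 34 at 7 days and 0 and 31 at 14 days, and 26 between the times in cGAS-KO.

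Only Atp6v0d2 fell below the floor, where 3 counts equal 0.133 to 0.195 CPM. Counts of Ctsk were also low, at 46 and 38 in 7-day WT and 19 to 99 in the 14-day libraries. Beyond depth, 2 libraries a group and the absence of an uninjured group limit what these comparisons can show.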
